A study of Homo sapiens with 10 samples.

Results

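The cell cycle and DNA replication genes followed here are 48 genes, taken by symbol from a table of 58050 Ensembl gene identifiers. Each of the 48 symbols matched exactly 1 identifier. They were divided into 25 genes of the G1/S transition and replication and 23 genes of G2/M and mitosis, and all 48 passed the filter of a mean of at least 1 TPM, as did 13581 genes in all. TPM values are read values divided by transcript length and scaled to the same total in each library. The genes were measured by poly(A) RNA sequencing in HCT116 cells, a human colorectal carcinoma line, with 5 libraries of HCT116-WT cells and 5 of HCT116-CD276KO cells, in which Cas9 and a guide RNA had been used to disrupt CD276 (B7-H3), a surface protein of the B7 family. The cells grew in McCoy's 5A medium with serum, and the 2 lines were kept in separate flasks. All HCT116-CD276KO libraries came from 1 single cell clone, so the libraries compare a clone with the cells labelled HCT116-WT. The spread of the HCT116-CD276KO libraries covers replicates of this clone and not other clones. The sources call the 5 libraries of a group biological replicates and do not say how they were kept apart. Whether the HCT116-WT cultures had received the scrambled control guide is not given in the sources used here.

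Cells commit to division when D-type cyclins with CDK4 or CDK6, and then cyclin E with CDK2, release E2F transcription factors from the retinoblastoma protein. E2F factors drive the genes that license replication origins and supply nucleotides, whereas a later wave of genes, switched on through FOXM1, B-MYB and the MuvB complex, builds the mitotic spindle and separates the chromosomes. Since each wave is transcribed in its own part of the cycle, the RNA of these genes in an unsynchronised culture follows the share of cells in each phase as well as the amount per cell, and bulk libraries cannot tell the 2 apart.

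The subgroups held different motifs in their promoters. The division by function had not used these sequences. However, the waves are described above by the factors that drive them, so the motifs are not independent of the division. RefSeq promoters (GRCh38.p14, 250 bases before and 50 bases after the start) were found for 38 of the 48 genes, and the first listed start was used for each of 27305 genes. An E2F site, spelled TTTCCCGC or TTTGGCGC on either strand, stood in 11 of 20 G1/S promoters and in 0 of 18 G2/M promoters, beside 2.31% of all promoters. The 11 were those of CDC25A, E2F1, E2F2, CDC6, CDT1, MCM3, MCM6, MCM7, GINS2, PCNA and TYMS. The CHR element, spelled TTTGAA on either strand, which MuvB complexes bind, stood in 11 of 18 G2/M promoters and in 1 of 20 G1/S promoters, that of RRM1, beside 15.4% of all promoters. The 11 G2/M promoters with it were those of CCNB2, CDK1, PLK1, KIF11, KIF23, BUB1B, MAD2L1, CENPF, CDC20, TOP2A and MKI67. A shorter E2F spelling, TTCCCGC or TTGGCGC, which the longer ones contain, stood in 13 of 20 G1/S and 2 of 18 G2/M promoters, beside 9.33% of all, and the CHR variant TTCGAA in 1 promoter of each subgroup (MCM6 and BUB1). The CCAAT box stood in 11 of 20 G1/S and 15 of 18 G2/M promoters, beside 35.7% of all. These are matches of letters and not shown binding sites, and where no match was found, only these letters are missing from this window.

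The 250 bases before the start are shown for the 3 genes of each subgroup with the most matches to its own motif (E2F for G1/S, CHR for G2/M) and then to all 3 motifs within these bases, to show where the motifs stand. E2F1, MCM3 and PCNA tied for 2 places, and the first 2 in alphabetical order are shown. Capitals mark the E2F, CHR and CCAAT matches, and ATTGG is CCAAT read on the other strand. For the G1/S subgroup these genes were MCM6 and MCM3, subunits of the replicative helicase, and the transcription factor E2F1:
MCM6 (chr2:135876444-135876693, minus strand): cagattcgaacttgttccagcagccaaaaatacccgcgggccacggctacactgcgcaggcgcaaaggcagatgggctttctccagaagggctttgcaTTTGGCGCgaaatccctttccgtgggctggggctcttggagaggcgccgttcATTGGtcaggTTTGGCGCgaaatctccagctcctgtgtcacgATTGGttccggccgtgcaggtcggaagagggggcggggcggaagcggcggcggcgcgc
E2F1 (chr20:33686386-33686635, minus strand): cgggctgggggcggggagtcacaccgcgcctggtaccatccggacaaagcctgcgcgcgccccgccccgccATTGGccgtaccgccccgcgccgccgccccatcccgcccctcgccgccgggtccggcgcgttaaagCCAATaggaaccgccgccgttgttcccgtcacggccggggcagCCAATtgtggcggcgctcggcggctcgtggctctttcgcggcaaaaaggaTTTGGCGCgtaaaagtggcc
MCM3 (chr6:52284743-52284992, minus strand): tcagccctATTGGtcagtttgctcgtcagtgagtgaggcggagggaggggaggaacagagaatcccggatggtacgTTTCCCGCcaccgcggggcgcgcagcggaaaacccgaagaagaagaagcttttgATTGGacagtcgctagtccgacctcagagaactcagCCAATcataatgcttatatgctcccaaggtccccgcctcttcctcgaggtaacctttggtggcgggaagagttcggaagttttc

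For the G2/M subgroup they were TOP2A, the topoisomerase that untangles sister chromatids, CDC20, an activator of the anaphase-promoting complex, and MKI67, which encodes the Ki-67 antigen. In MKI67 a CHR match and a CCAAT match overlap:
TOP2A (chr17:40417897-40418146, minus strand): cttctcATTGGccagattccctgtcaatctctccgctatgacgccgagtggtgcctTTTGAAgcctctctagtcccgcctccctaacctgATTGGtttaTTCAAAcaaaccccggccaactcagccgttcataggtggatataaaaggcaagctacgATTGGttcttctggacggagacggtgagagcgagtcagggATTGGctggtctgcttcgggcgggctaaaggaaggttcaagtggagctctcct
CDC20 (chr1:43358731-43358980, plus strand): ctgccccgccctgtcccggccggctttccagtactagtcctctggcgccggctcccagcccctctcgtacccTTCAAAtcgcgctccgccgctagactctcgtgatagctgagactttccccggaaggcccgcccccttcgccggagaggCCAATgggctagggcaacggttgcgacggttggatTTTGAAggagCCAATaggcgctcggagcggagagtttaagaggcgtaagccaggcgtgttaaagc
MKI67 (chr10:128126424-128126673, minus strand): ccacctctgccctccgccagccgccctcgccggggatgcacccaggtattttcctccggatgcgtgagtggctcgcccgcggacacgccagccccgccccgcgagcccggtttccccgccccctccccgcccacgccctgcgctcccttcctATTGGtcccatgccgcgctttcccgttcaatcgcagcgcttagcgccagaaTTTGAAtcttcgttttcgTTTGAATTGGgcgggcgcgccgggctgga

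The edit was visible in every library. CD276 (ENSG00000103855) stood between 38.1 and 53.6 TPM in HCT116-WT and between 4.4 and 7.42 TPM in HCT116-CD276KO libraries. Of 8 epithelial markers, EPCAM, KRT8, KRT18, KRT19 and CDH1 stood at 14.3 TPM or more in all 10 libraries and CDX2 at 6.78 or more. KRT20 and VIL1 stayed under 1 TPM. CDH1 averaged 42.7 TPM in HCT116-WT and 20.4 TPM in HCT116-CD276KO, without overlap (limma, adjusted p-value 0.00311, and 0.00194 after median-of-ratios scaling). EPCAM, KRT8, KRT18 and KRT19 were also lower in HCT116-CD276KO, with adjusted p-values of 0.00263 to 0.0486 from limma. After median-of-ratios scaling these ran from 0.0523 to 0.252. CDX2 averaged 8.91 TPM in HCT116-WT and 9.27 TPM in HCT116-CD276KO. Of 13 leukocyte and fibroblast markers, 11 never exceeded 0.48 TPM, with PTPRC at 0.13 TPM or less and LUM listed at 0 throughout, whereas CD68 stood between 6.01 and 14.8 TPM and COL1A1 between 4.54 and 8.84 TPM. TPM do not keep the number of reads, so the depth of each library is unknown.

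No cell cycle gene passed the test between HCT116-CD276KO and HCT116-WT cells. With limma on log2(TPM + 1), 0 of 48 genes had an adjusted p-value under 0.05, beside 4.87% of the 13581 genes tested, and none was also 2-fold changed, beside 0.486%. At an unadjusted p under 0.05 there were 9 of 48 genes (18.8%), 8 with a lower and 1 with a higher mean in HCT116-CD276KO, beside 21.9% of all genes. The median log2 fold change was -0.03 over the 25 G1/S genes and -0.09 over the 23 G2/M genes, and -0.09 over all genes tested, of which 68.1% had a lower mean in HCT116-CD276KO. Means were lower for 15 of 25 G1/S genes and for 17 of 23 G2/M genes, but after median-of-ratios scaling for 9 of 25 and 11 of 23, with medians of 0.07 and 0.01, so the direction of a small difference followed the scaling.

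The intervals show, gene by gene, which sizes of change fit the spread between these libraries. They come from the TPM as deposited and from 1 clone, and do not cover the choice of scaling or other clones. The 95% interval of the log2 fold change lay inside 2-fold in either direction for 48 of 48 genes, beside 95.4% of all genes. It lay inside 1.5-fold for 43 (89.6%, beside 79.8% of all genes) and inside 1.2-fold for 25 (share over all genes not taken). The 5 genes whose intervals reached beyond 1.5-fold were CCND1, CDK6, BUB1B, CENPE and MKI67, and in each the interval reached towards lower values.

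**Figure D1:**
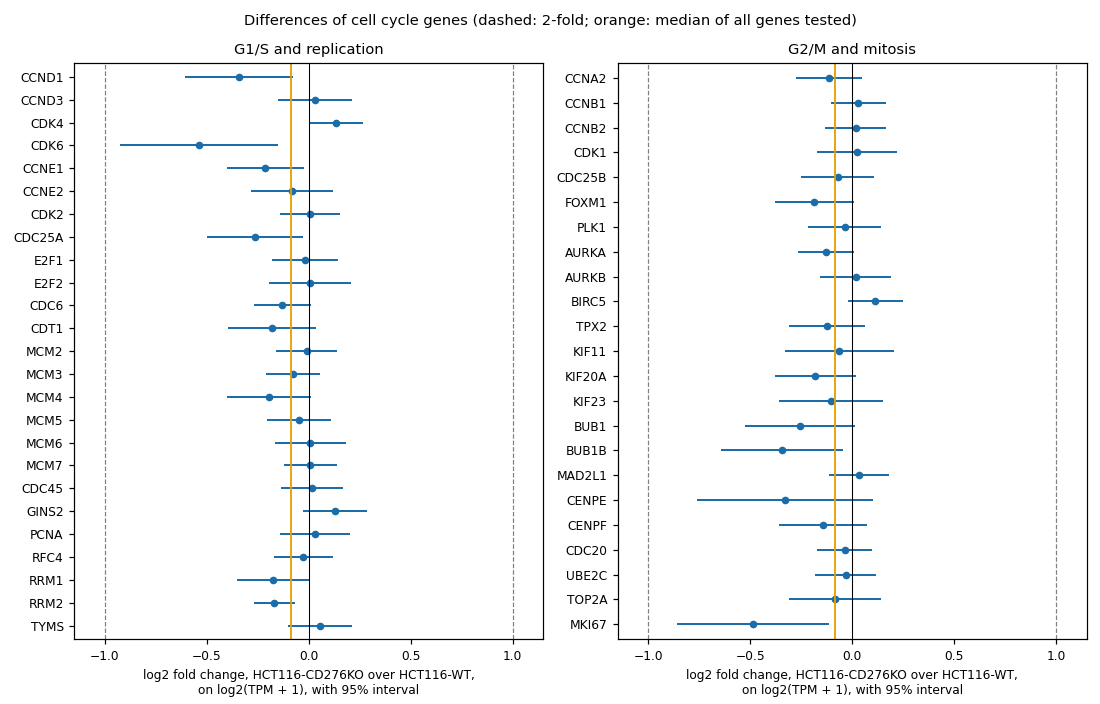
log2 fold change of each cell cycle gene, HCT116-CD276KO over HCT116-WT on log2(TPM + 1), as a point with its 95% interval from limma (horizontal axis; 5 libraries per group), for the G1/S and replication genes (left) and the G2/M and mitosis genes (right). Dashed lines mark a 2-fold change and the orange line the median of all genes tested (-0.09); no interval crosses a dashed line, and those of CDK6 and MKI67 reach furthest to the left.

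CCND1, the D-type cyclin that carries mitogen signals into the cycle, had the highest level of the 48 genes. Its level was 606, 515, 628, 525 and 592 TPM in the HCT116-WT libraries and 491, 436, 339, 446 and 571 TPM in the HCT116-CD276KO libraries, here and in each such list in the order of replicates 1 to 5. Replicate 3 of HCT116-CD276KO was the lowest library and replicate 5 lay among the HCT116-WT values, so the groups overlapped. The means were 573 ± 50.3 and 457 ± 84.6 TPM (SD, n = 5 each, as for all values given with ±), and the log2 fold change was -0.34 (95% interval -0.60 to -0.08, adjusted p-value 0.128 from limma). CCND3, a D-type cyclin that binds the same kinases, had means of 44.1 ± 3.71 and 45.1 ± 4.14 TPM, and CCND1 exceeded it 12.6-fold to 13.3-fold in HCT116-WT libraries and 8.35-fold to 12.3-fold in HCT116-CD276KO libraries. These ranges do not overlap. The lowest ratios, 8.48 and 8.35, were those of HCT116-CD276KO replicates 2 and 3. How often ratios of other gene pairs show no overlap was not counted, and the ratio was not tested.

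CDK4 and CDK6, the partner kinases of these cyclins, had differences of opposite sign. CDK4 stood at 367, 348, 358, 361 and 349 TPM in HCT116-WT and at 368, 439.8, 399, 372.5 and 381 TPM in the HCT116-CD276KO libraries. CDK4 was the only member whose 5 HCT116-CD276KO values all lay above the HCT116-WT values, by less than 1 TPM at the nearest, and 1.42% of all genes tested showed this. Its log2 fold change was 0.13 (95% interval 0.01 to 0.26, adjusted p-value 0.204 from limma). CDK6 stood at 29.8, 26.7, 24.3, 23.3 and 29.2 TPM in HCT116-WT and at 23.9, 13.0, 13.2, 18.2 and 24.7 TPM in HCT116-CD276KO. Replicates 2 and 3 of HCT116-CD276KO were the lowest, and replicates 1 and 5 lay within the HCT116-WT range. The log2 fold change of CDK6 was -0.54 (95% interval -0.92 to -0.16, adjusted p-value 0.106 from limma), the furthest from 0 of the 48. CDK4 exceeded CDK6 13.5 ± 1.56-fold in HCT116-WT and 23.1 ± 8.55-fold in HCT116-CD276KO libraries (SD, n = 5 each). The ratio ran from 11.9 to 15.5 in HCT116-WT and was 15.4, 33.9, 30.2, 20.4 and 15.4 in the HCT116-CD276KO libraries. Replicates 1 and 5 of HCT116-CD276KO thus lay within the HCT116-WT range, and the ratio was not tested.

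The cyclin E module stood lower in level. CCNE1 and CCNE2, the cyclins that activate CDK2 at the G1/S boundary, had HCT116-WT means of 35.9 ± 3.98 and 29.6 ± 3.29 TPM and HCT116-CD276KO means of 30.7 ± 1.98 and 27.8 ± 2.46 TPM, with log2 fold changes of -0.21 and -0.08. CDK2 itself stood at means of 104 and 105 TPM, a log2 fold change of 0.01 with a 95% interval from -0.14 to 0.15. CDC25A, the phosphatase that removes inhibitory phosphates from CDK2, had means of 27.4 ± 2.74 and 22.7 ± 3.22 TPM and differed by -0.26 on the log2 scale (adjusted p-value 0.178 from limma). E2F1 and E2F2 had the third lowest and the lowest level of the 48 genes, at HCT116-WT means of 18.6 ± 0.989 and 8.55 ± 0.520 TPM and HCT116-CD276KO means of 18.4 ± 1.49 and 8.63 ± 1.05 TPM. Their log2 fold changes were -0.02 and 0.01.

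**Figure D2:**
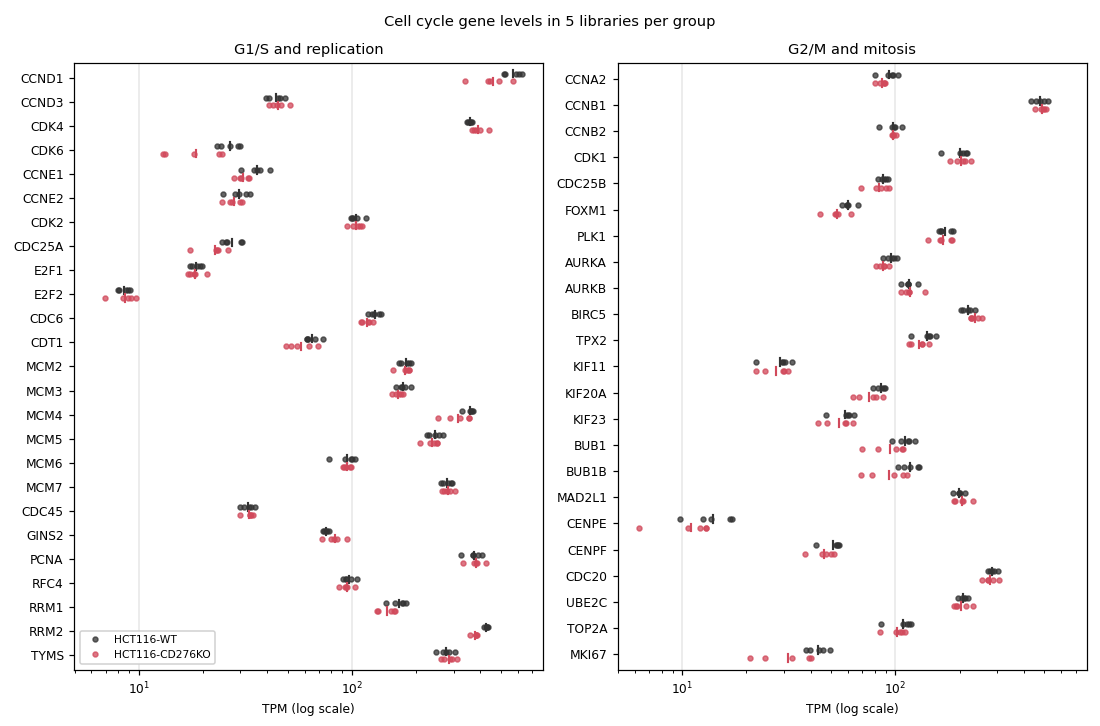
TPM of each cell cycle gene in every library (horizontal axis, log scale), with 5 HCT116-WT libraries in black and 5 HCT116-CD276KO libraries in red; short vertical bars are group means. The levels run from E2F2, near 8.55 TPM, to CCND1, at 573 TPM in HCT116-WT, and the groups overlap for every gene but CDK4 and RRM2.

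Origin licensing loads the MCM2 to MCM7 helicase onto DNA, with CDC6 and CDT1 as the loaders. The log2 fold changes of the 6 MCM genes lay between -0.20 and 0.01. MCM2 stood at 179 ± 10.2 TPM in HCT116-WT and 177 ± 12.4 TPM in HCT116-CD276KO, MCM5 at 245 ± 18.1 and 237 ± 17.1 TPM, and MCM7 at 279 ± 13.9 and 281 ± 15.2 TPM. MCM3 had means of 174 ± 10.0 and 165 ± 7.53 TPM. MCM4 had the lowest log2 fold change of the complex, -0.20 (95% interval -0.40 to 0.00), with 371, 360, 362, 330 and 365 TPM in HCT116-WT and 356, 288, 253, 320 and 356 TPM in the HCT116-CD276KO libraries. MCM6 had the lowest level of the complex in all 10 libraries, with a mean of 94.6 TPM in each group. The subunits form a ring with equal numbers of each, but their RNA did not stand at equal levels: within a library the highest exceeded the lowest 3.35-fold to 4.66-fold in HCT116-WT and 2.85-fold to 3.87-fold in HCT116-CD276KO.

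The loaders CDC6 and CDT1 had log2 fold changes of -0.13 and -0.18, with adjusted p-values of 0.238 and 0.286 from limma. CDC45 and GINS2, which join MCM2 to MCM7 in the active helicase, had log2 fold changes of 0.02 and 0.13. GINS2 stood between 73.1 and 78.4 TPM in HCT116-WT and between 72.5 and 94.4 TPM in HCT116-CD276KO libraries. Its spread in HCT116-CD276KO, 9.65% of the mean against 2.75%, covered the HCT116-WT range.

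RRM2 came nearest to the threshold. It is the small subunit of ribonucleotide reductase, which makes deoxynucleotides, and lies on chromosome 2 of hg38 from 10120698 to 10211725. It was measured at 434, 425, 414, 428 and 429 TPM in HCT116-WT and 382, 383, 359, 382 and 388 TPM in the HCT116-CD276KO libraries. All 5 HCT116-CD276KO values lay below all HCT116-WT values, as was true of 6.19% of all genes tested and of no other member. The means were 426 ± 7.29 and 379 ± 11.2 TPM (SD, n = 5 each), and the log2 fold change was -0.17 (standard error 0.04, adjusted p-value 0.0518 from limma). It was -0.07 after median-of-ratios scaling (adjusted p-value 0.434) and -0.07 once length and GC trends were removed (adjusted p-value 0.489). After quantile scaling it was -0.16 (adjusted p-value 0.0636, all from limma), so its size depends on how the libraries are scaled.

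The partner subunit RRM1 had means of 166 ± 13.8 and 147 ± 13.2 TPM and differed by -0.18 on the log2 scale (adjusted p-value 0.224 from limma). TYMS, which makes thymidylate, stood at 275 ± 21.1 and 286 ± 19.7 TPM. PCNA, the sliding clamp of the replication fork, stood at 372 ± 30.2 and 380 ± 33.7 TPM, and RFC4, a subunit of its loader, at 96.6 ± 5.85 and 94.7 ± 5.97 TPM. The log2 fold changes of PCNA, RFC4 and TYMS lay between -0.03 and 0.05.

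The 6 genes of mitotic entry had a median log2 fold change of -0.03, which was 0.07 after median-of-ratios scaling. CCNB1, the cyclin that drives entry into mitosis with CDK1, stood at 518, 458, 433, 499 and 479 TPM in HCT116-WT and at 453, 481, 499, 506 and 491 TPM in the HCT116-CD276KO libraries. The HCT116-CD276KO values lay inside the HCT116-WT range, with a log2 fold change of 0.03 (95% interval -0.10 to 0.16). CCNB2, a cyclin of the same kind, had means of 97.0 and 97.9 TPM, and CCNB1 exceeded it 4.93 ± 0.204-fold in HCT116-WT and 4.96 ± 0.173-fold in HCT116-CD276KO libraries. CDK1 stood at 201 ± 21.9 and 203 ± 17.2 TPM. CCNA2, the cyclin of S and G2 phase, CDC25B, a phosphatase that activates CDK1, and the transcription factor FOXM1 had log2 fold changes of -0.11, -0.07 and -0.19, with adjusted p-values from 0.232 to 0.605 from limma.

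Among the mitotic kinases, PLK1 had means of 171 ± 11.7 and 167 ± 17.5 TPM, AURKA of 95.2 ± 5.51 and 87.0 ± 4.52 TPM, and AURKB of 116 ± 7.92 and 117 ± 12.0 TPM. BIRC5, also called survivin and a partner of AURKB in the chromosomal passenger complex, had the highest log2 fold change of the G2/M genes, 0.11 (95% interval -0.02 to 0.24), with means of 218 ± 13.4 and 236 ± 12.8 TPM. The AURKA activator TPX2 had a log2 fold change of -0.12. The motors KIF11, which pushes the spindle poles apart, and KIF20A and KIF23, which act in cytokinesis, had log2 fold changes of -0.06, -0.18 and -0.10. CDC20 and UBE2C, which serve the anaphase-promoting complex as activator and ubiquitin-conjugating enzyme, stood at 285 ± 11.4 and 278 ± 19.7 TPM and at 208 ± 8.92 and 204 ± 18.1 TPM.

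The 5 genes of the spindle checkpoint and kinetochore had a median log2 fold change of -0.26. This median was -0.16 after median-of-ratios scaling, -0.14 with length and GC trends removed, -0.07 without HCT116-CD276KO replicates 2 and 3, and -0.16 without HCT116-CD276KO replicate 2 alone. BUB1B, the checkpoint protein BubR1, stood at 129, 127, 102, 109.7 and 117 TPM in HCT116-WT and at 108, 69.01, 77.5, 98.2 and 113.5 TPM in the HCT116-CD276KO libraries. Replicates 2 and 3 were again the lowest, and the groups overlapped. Its log2 fold change was -0.34 (95% interval -0.64 to -0.05, adjusted p-value 0.162 from limma). The checkpoint kinase BUB1 had a log2 fold change of -0.26, the kinetochore motor CENPE one of -0.33 and the kinetochore protein CENPF one of -0.14, while MAD2L1, which encodes the checkpoint protein MAD2, had one of 0.03. CENPE had the second lowest level of the 48 genes, with means of 14.0 ± 3.08 and 11.0 ± 2.80 TPM.

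MKI67, the common marker of proliferating cells, stood at 49.2, 43.8, 38.2, 46.0 and 39.6 TPM in HCT116-WT and at 40.4, 24.6, 20.7, 32.7 and 39.2 TPM in the HCT116-CD276KO libraries. The values of HCT116-CD276KO replicates 1 and 5 lay inside the HCT116-WT range and replicates 2 and 3 far below it. Its log2 fold change was -0.49 (95% interval -0.86 to -0.12, adjusted p-value 0.126 from limma). TOP2A, which is used beside it as a proliferation marker and is highest in G2, had means of 108 ± 13.3 and 102 ± 10.4 TPM and a log2 fold change of -0.09.

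The lowest fold changes lay mostly among genes with long transcripts. Across the 48 genes the Spearman correlation of log2 fold change with the length of the reference transcript (GENCODE 44) was -0.60, and over 13472 genes with a length it was -0.41. Genes are not independent replicates, and these values are descriptions. The 16 shortest transcripts, of 777 to 2240 bases, had a median log2 fold change of 0.02, the 16 next, of 2467 to 3552 bases, one of -0.08, and the 16 longest, of 3660 to 12716 bases, one of -0.17. MKI67 and CDK6 have the longest transcripts of the 48, of 12716 and 11663 bases.

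The libraries differed in this pattern. In HCT116-CD276KO replicates 2 and 3 the deviations of the 48 genes from their own means followed length with a Spearman correlation of -0.67 and -0.58, and those of all genes with -0.52 and -0.49. In HCT116-WT replicates 1, 2 and 5 the values over the 48 genes were 0.49, 0.58 and 0.64, and in HCT116-CD276KO replicates 1 and 5 they were 0.55 and 0.55. The 16 longest transcripts had a median deviation of -0.26 and -0.25 on the log2 scale in HCT116-CD276KO replicates 2 and 3, and between -0.06 and 0.20 in the other 8 libraries. The 16 shortest stayed between -0.09 and 0.10 in all 10 libraries. The spread between replicates exceeded that of HCT116-WT in HCT116-CD276KO for 31 of the 48 genes (64.6%), beside 63.7% of all genes tested.

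**Figure D3:**
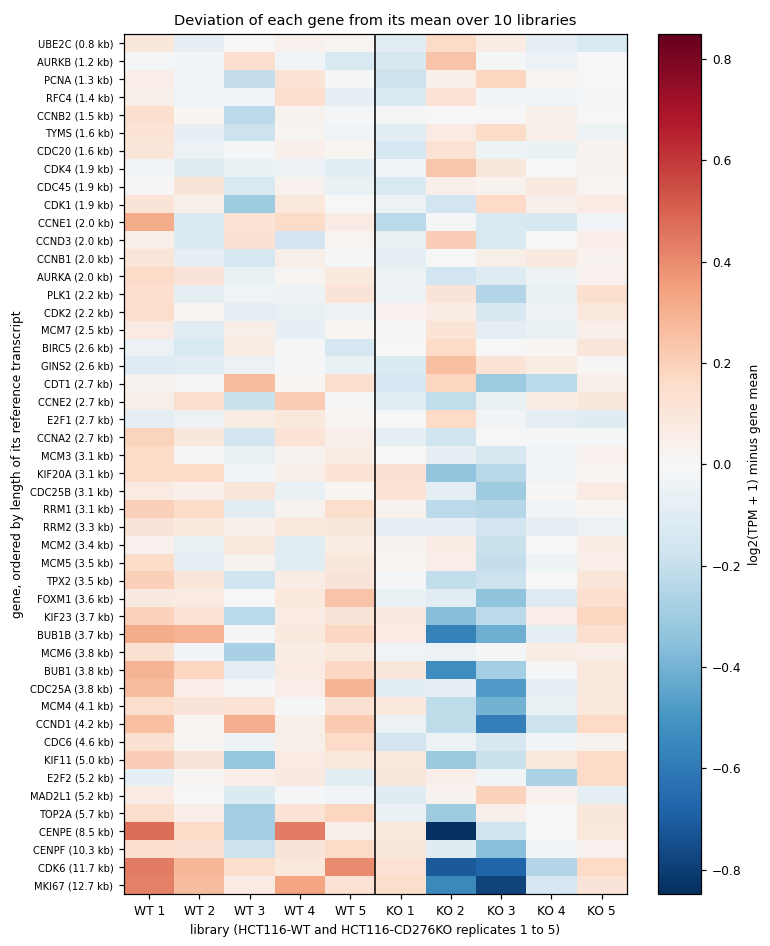
Deviation of each cell cycle gene from its own mean over 10 libraries, as log2(TPM + 1) minus that mean (colour), with genes in rows from the shortest to the longest reference transcript and libraries in columns (WT, HCT116-WT; KO, HCT116-CD276KO). The lower rows are blue in HCT116-CD276KO replicates 2 and 3, where the 16 longest transcripts had medians of -0.26 and -0.25, and light red in HCT116-WT replicate 1, with a median of 0.20.

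Without HCT116-CD276KO replicates 2 and 3, a step chosen after seeing the data, 0 of 48 genes had an adjusted p-value under 0.05, beside 2.5% of the 13581 genes tested, and 4 had an unadjusted p under 0.05, beside 15% of all genes. The log2 fold change of CDK6 was then -0.26, that of MKI67 -0.21, that of CCND1 -0.19 and that of BUB1B -0.13, and all 48 lay between -0.26 and 0.10. When local regression on transcript length and GC content was used to take out the trends of the libraries, the median log2 fold change was 0.03 for the G1/S genes and 0.01 for the G2/M genes, and the correlation with length over the 48 genes was -0.15. In that fit 2 of 48 genes had an adjusted p-value under 0.05, beside 9.55% of the 13472 genes tested in it. They were CDK4, with a value of 0.17 (adjusted p-value 0.0489 from limma), and CDK6, with one of -0.31 (adjusted p-value 0.0244 from limma). MKI67 had a log2 fold change of -0.22 there, with an adjusted p-value of 0.143. What gave the libraries their length trends was not tested.

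A wider list of 132 further cell cycle genes was measured beside the 48. CCND2 was not tested, since it stood at 0.01 TPM or less in the HCT116-WT libraries and at 0 in the HCT116-CD276KO libraries. The other 131 were tested, and 2 (1.53%) had an adjusted p-value under 0.05, 1 in each direction, beside 4.87% of all genes tested. The median log2 fold change over the 131 was -0.10, beside -0.09 over all genes, and it was -0.01 both after median-of-ratios scaling and with length and GC trends removed. RPA3, a subunit of the single-strand DNA binding protein RPA, rose from 108, 115, 106, 115 and 100.4 TPM in the HCT116-WT libraries to 121, 142, 149.6, 130.4 and 122 TPM in the HCT116-CD276KO libraries. The groups did not overlap, and the log2 fold change was 0.28 (standard error 0.07, adjusted p-value 0.0475 from limma). KIF18B, a kinesin that controls astral microtubules, fell from 21.4, 21.4, 23.6, 20.9 and 21.6 TPM to 18.6, 16.2, 14.5, 17.6 and 18.5 TPM, again with no overlap. Its log2 fold change was -0.34 (standard error 0.08, adjusted p-value 0.0329 from limma). Both lie close to the threshold: with the replicate number as a block the adjusted p-values were 0.0771 for RPA3 and 0.0959 for KIF18B, and after median-of-ratios scaling 0.0560 and 0.0520.

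By function, the medians of the wider list lay between -0.07, for 28 genes of the polymerases and the fork, and -0.14, for 20 genes of cohesin, condensin and anaphase, around the -0.09 of all genes. After median-of-ratios scaling these medians were 0.03 and -0.05, and with length and GC trends removed 0.04 and -0.02. The 18 genes of origin recognition and firing had a median of -0.11 and the 35 spindle and kinetochore genes one of -0.12, which were -0.01 and -0.03 after median-of-ratios scaling. The 12 G2/M regulators had a median of -0.10. Their means were lower for 12 of 12 as deposited, for 7 after median-of-ratios scaling and for 5 with length and GC trends removed, so no direction held across the scalings. At an unadjusted p under 0.05 there were 21 of 131 genes (16.03%), 17 with lower and 4 with higher means in HCT116-CD276KO, beside 21.9% of all genes tested, of which 68.1% had lower means.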

How the data were processed

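Poly(A) RNA of 5 HCT116-WT and 5 HCT116-CD276KO cultures was sequenced as single reads. The authors deposited TPM values for 58050 Ensembl genes, made from reads mapped to hg38 with STAR 2.5.2b and quantified with RSEM 1.3.0 and featureCounts 1.5.1 per the methods and the submitters' processing notes; which program gave the TPM is not given in the sources used here. No depth can be read from TPM. Symbols and transcript lengths came from GENCODE 44, newer than the authors' annotation on the same assembly, and promoters from RefSeq.

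Genes averaging 1 TPM or more were compared on log2(TPM + 1) with limma 3.58.1 in R 4.3.3 (variance trend, Benjamini-Hochberg adjustment over all genes tested; threshold 0.05). A fold change on this scale understates that of low genes. P-values measure the spread between these libraries. The scripts were tested on simulated data with independent noise for each gene. These held no length trends of libraries, so the test does not cover such trends. Tables and figures used Python 3.11.15, numpy 2.4.6, pandas 2.3.3, scipy 1.17.1 and matplotlib 3.10.9. The 48 genes and the other lists were chosen with earlier results of these data known, so no test over a list was made. All 48 were to be named, with CD276 and, of the wider list, genes past the threshold without overlap between groups. CCND2 and GINS3 were named outside this rule. Printed promoters were those with the most motif matches, ties in alphabetical order. The alternatives used a pseudocount of 0.1, every gene above 0 TPM, a mean of at least 5 TPM, median-of-ratios and quantile scaling, removal of length and GC trends (local regression, share 0.3), a replicate block, a robust variance model and the omission of each library.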

Additional observations from a re-analysis of the deposited data

Results flagged for a closer look

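In 6 of 96 groups of 5 values, over the 48 genes in each group, the highest or lowest library stood apart from the rest by more than 0.71 of the range of the group. Chance gives this in about 1 of 20 groups, or 4.8 of 96. MCM2 was lowest in HCT116-CD276KO replicate 3, at 156 TPM against 177.8 to 186 TPM in the others. RRM2 was also lowest in this library, at 359 TPM against 382 to 388 TPM. CDC45 stood at 29.8 TPM in HCT116-CD276KO replicate 1 against 33.2 to 34.5 TPM, and CCNB2 at 100.7 TPM in replicate 4 against 96.8 to 97.5 TPM. Among HCT116-WT libraries, MCM4 stood at 330.2 TPM in replicate 4 against 359.9 to 371 TPM, and CENPF at 42.6 TPM in replicate 3 against 52.4 to 54.4 TPM.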

How the results depend on the processing

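No cell cycle gene passed an adjusted p-value of 0.05 as reported or in 15 of 19 alternatives. The count was 2 once length and GC trends were removed (CDK4 and CDK6), 1 with all genes above 0 TPM (RRM2), and between 0 and 1 with 1 library left out. RRM2 passed without HCT116-WT replicate 3 and CCND1, at -0.43, without HCT116-CD276KO replicate 5. The lowest adjusted p-value from limma over all fits was 0.0403 for RRM2 and 0.0470 for CCND1. Signs changed in 80 of 912 values, over 28 genes with reported log2 fold changes of at most 0.14 in size, none past the threshold in either fit. Median-of-ratios scaling put the median at 0.0699 for G1/S and 0.0120 for G2/M genes, and removal of length and GC trends put the G2/M median at 0.0120. With 1 library left out these medians ran from -0.06 to -0.02 and from -0.16 to -0.06. In the wider list 2 of 131 genes passed as reported, beside 4.87% of all genes tested. After removal of length and GC trends 8 passed, beside 9.55% of all genes tested. The count was 1 after median-of-ratios scaling, 0 with all genes above 0 TPM, and 0 to 4 with 1 library left out. Without HCT116-CD276KO replicates 2 and 3 (an alternative chosen after seeing the data) it was 1, beside 2.5% of all genes tested. RPA3 passed in 7 of 19 alternatives and KIF18B in 6. GINS3 did not pass as reported (log2 fold change 0.30, adjusted p-value 0.0790 from limma), and its groups overlapped. It was the gene that passed after median-of-ratios scaling (adjusted p-value 0.0272). GINS3 also passed after quantile scaling (0.0205) and with length and GC trends removed (0.00913, all from limma). Of all genes, 662 passed as reported and 1287 after removal of length and GC trends. After median-of-ratios scaling 580 passed, and with all genes above 0 TPM 542. Without HCT116-CD276KO replicates 2 and 3 there were 339, and with 1 library left out 343 to 857. At 2-fold and more 66 passed, 112 with a pseudocount of 0.1, 40 at a mean of at least 5 TPM, and 61 to 74 with 1 library left out. CD276 stayed between -3.04 and -2.74. The causes were not tested.

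With the replicate number as a block, 378 genes passed, 0 of the 48 and 0 of the wider list. In the labels, same-numbered samples share only that number. The correlation of the deviations of same-numbered libraries ran from -0.18 to 0.12 over genes, and 1 of 5 HCT116-WT libraries correlated best with its own number. Because these deviations also carry the length trends of the libraries, they cannot tell whether same-numbered cultures were handled together.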
